A study of Mus musculus with 8 samples.

Results

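The tumour necrosis factor (TNF) superfamily was described across 8 mouse melanomas, 1 control and 7 that had become resistant to loss of their driving oncogene. Members were the genes whose array symbol is a Tnfsf or Tnfrsf number, with at most 1 letter after it, together with Tnf, Lta, Ltb, Ltbr, Fas, Fasl and Cd40. They comprise 37 genes, 14 ligands and 23 receptors, read by 61 probes. A probe was counted as detected on an array when its detection p was under 0.05. By that measure 25 members, 8 ligands and 17 receptors, were detected on at least 1 array, out of 10461 detected genes in all.

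All 8 tumours were from FVB/n mice, and the labels' protocols give the genotype DCT-TVA;Ink4a/Arf lox/lox. In these animals the Dct promoter places the avian virus receptor TVA on melanocytes, and the floxed Ink4a/Arf tumour suppressor locus can be deleted by Cre. The 7 resistant tumours were started in newborn mice, under the skin, with 2 viruses, Tet-off and TRE-NRASQ61R-IRES-Cre. Doxycycline food was given at 1000 mm3 to switch off the oncogene NRAS Q61R, a mutant RAS GTPase, and these tumours no longer responded to its loss. In the control, NRAS Q61R stayed on. Its label names an NRAS-IRES-Cre construct without the Tet-off parts, so the virus behind it is not settled. Whether the 7 resistant tumours came from 7 mice is not stated, and the spread behind each p-value, which may be technical, is that among these 7 arrays because the control has 1.

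TNF superfamily ligands are trimeric proteins, mostly made on the cell surface and in part shed, that cluster receptors of the matching family on the same or a neighbouring cell. Receptors with a cytoplasmic death domain, such as FAS and the TRAIL receptor, can start apoptosis through FADD and caspase 8, while most others recruit TRAF adaptors and switch on NF-κB. In tumours these proteins are known for the costimulation of T cells, the survival of B cells, the killing of tumour cells and, through RANKL, the formation of osteoclasts.

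Between 11821 and 12851 of 25697 probes were detected on an array, and 16 to 20 of the 37 members. The number of arrays limits the precision. Of 6 melanocyte markers with a probe, Mitf, Tyr, Tyrp1, Dct and Mlana were detected on no array. The remaining marker, Pmel, was detected on 2 arrays, and Sox10 had no probe. These arrays therefore do not show the labelled tissue by its markers, though an undetected probe does not show that a transcript is absent. Resistant tumour 6 had the most genes at least 2-fold from the control. The RNA is from whole tumours, so fewer cells of a type and less RNA per cell cannot be told apart. Levels are given on the log2 scale of background-corrected, quantile-normalized intensity. On that scale the lowest detected signal of an array lay between 5.12 and 5.36. A level of 1 gene is compared across tumours and never with the level of another gene.

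The 250 bases upstream of the annotated start of 3 members are shown because the first is the member that passed the test below and the other 2 are members whose levels were highest in resistant tumour 1. The sequences are RefSeq's, build GRCm38.p6, 5′ to 3′ on the strand of the gene, and 29 of the 37 members have an entry there. Capitals mark matches, on either strand, to TATAAA, to the AP-1 motif TGANTCA, to the STAT motif TTCNNNGAA and to the NF-κB consensus.
Tnfsf11, chr14:78308044-78308293, minus strand: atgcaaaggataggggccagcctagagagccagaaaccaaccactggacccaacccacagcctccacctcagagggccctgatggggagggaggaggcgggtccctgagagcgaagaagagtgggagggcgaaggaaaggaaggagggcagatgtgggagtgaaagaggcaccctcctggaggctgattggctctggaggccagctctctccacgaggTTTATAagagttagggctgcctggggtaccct
Tnfrsf18, chr4:156026072-156026321, plus strand: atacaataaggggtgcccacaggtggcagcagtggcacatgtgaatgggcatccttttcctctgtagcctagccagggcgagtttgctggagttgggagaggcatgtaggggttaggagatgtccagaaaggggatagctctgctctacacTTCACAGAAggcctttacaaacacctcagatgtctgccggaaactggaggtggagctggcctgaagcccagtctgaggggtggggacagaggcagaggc
Ltb, chr17:35194257-35194506, plus strand: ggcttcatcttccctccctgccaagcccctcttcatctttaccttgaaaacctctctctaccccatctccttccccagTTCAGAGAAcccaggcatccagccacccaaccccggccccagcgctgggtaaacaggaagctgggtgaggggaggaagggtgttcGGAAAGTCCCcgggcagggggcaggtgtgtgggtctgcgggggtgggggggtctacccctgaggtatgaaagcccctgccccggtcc
Upstream of Tnfsf11 the capitals are a reverse-strand TATAAA at bases -32 to -27 from the start. Such a match is present in 12.4% of 32851 windows of this length. Tnfrsf18 has the STAT motif at -99 to -91. Ltb has it at -172 to -164 and an NF-κB consensus on the reverse strand at -87 to -78. The shares of all windows with these motifs are 7.02% for the STAT motif, 7.25% for the NF-κB consensus and 6.75% for TGANTCA, which none of the 3 windows holds. The motifs do not overlap each other in these windows, and a match is a description of the letters, not of a bound site.

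Of the 25 detected members, 1 fell and 0 rose in the resistant tumours by limma at an adjusted p under 0.05, against 0.210% of all genes that fell and 0.00956% that rose. At an unadjusted p under 0.05, 2 members were lower and 0 higher, against 5.35% and 2.86% of all genes. All 7 resistant tumours lay below the control for 3 members, Tnfsf11, Tnfrsf26 and Lta, and above it for 2, Tnfsf13b and Tnfrsf17. The background for these counts is 1779 of 10461 genes below (17%) and 13.3% above. Tnfrsf26 counts as detected through the control alone, so its direction follows from the detection filter. Tnfsf13b and Tnfrsf17 passed that filter through resistant tumours alone, Tnfrsf17 through tumour 6 only, so the filter favours a higher reading for both. The other Tnfrsf17 values, like that of the control, are not detected signals. The mean difference reached 1 on the log2 scale, a 2-fold change, for 1 higher member, Tnfsf13b, against 3.88% of all genes. It did so for 5 lower members, Tnfsf11, Tnfsf14, Cd40, Tnfrsf26 and Tnfrsf21, against 5.75%. The median difference over the 25 members was -0.20, beside -0.02 over all genes. Among the resistant tumours, 9 of the 25 had a range of at least 2 on the log2 scale, a 4-fold span, against 16.4% of all genes. Their median range was 1.45, beside 0.99 for all genes. In 5 of the 25, 1 resistant tumour was set apart from the other 6 by Dixon's gap ratio, against 13.1% of all genes. Each tumour was also set against the control array singly, with a member or gene counted when it was at least 2-fold away and detected on the brighter array. Higher members numbered 5 in tumour 1, 3 in tumours 2, 5 and 7, 4 in tumours 4 and 6 and 1 in tumour 3. The shares of all genes so counted were 5.13%, 6.14%, 7.70%, 6.68%, 6.59%, 11.6% and 5.02% in tumours 1 to 7. Lower members numbered 2, 6, 7, 7, 5, 8 and 5 in tumours 1 to 7, against 5.28%, 8.10%, 9.31%, 8.68%, 9%, 13.2% and 6.51% of all genes. Tnfsf11 and Tnfrsf26 were among the lower members and Tnfsf13b among the higher ones in all 7 tumours.

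**Figure D1:**
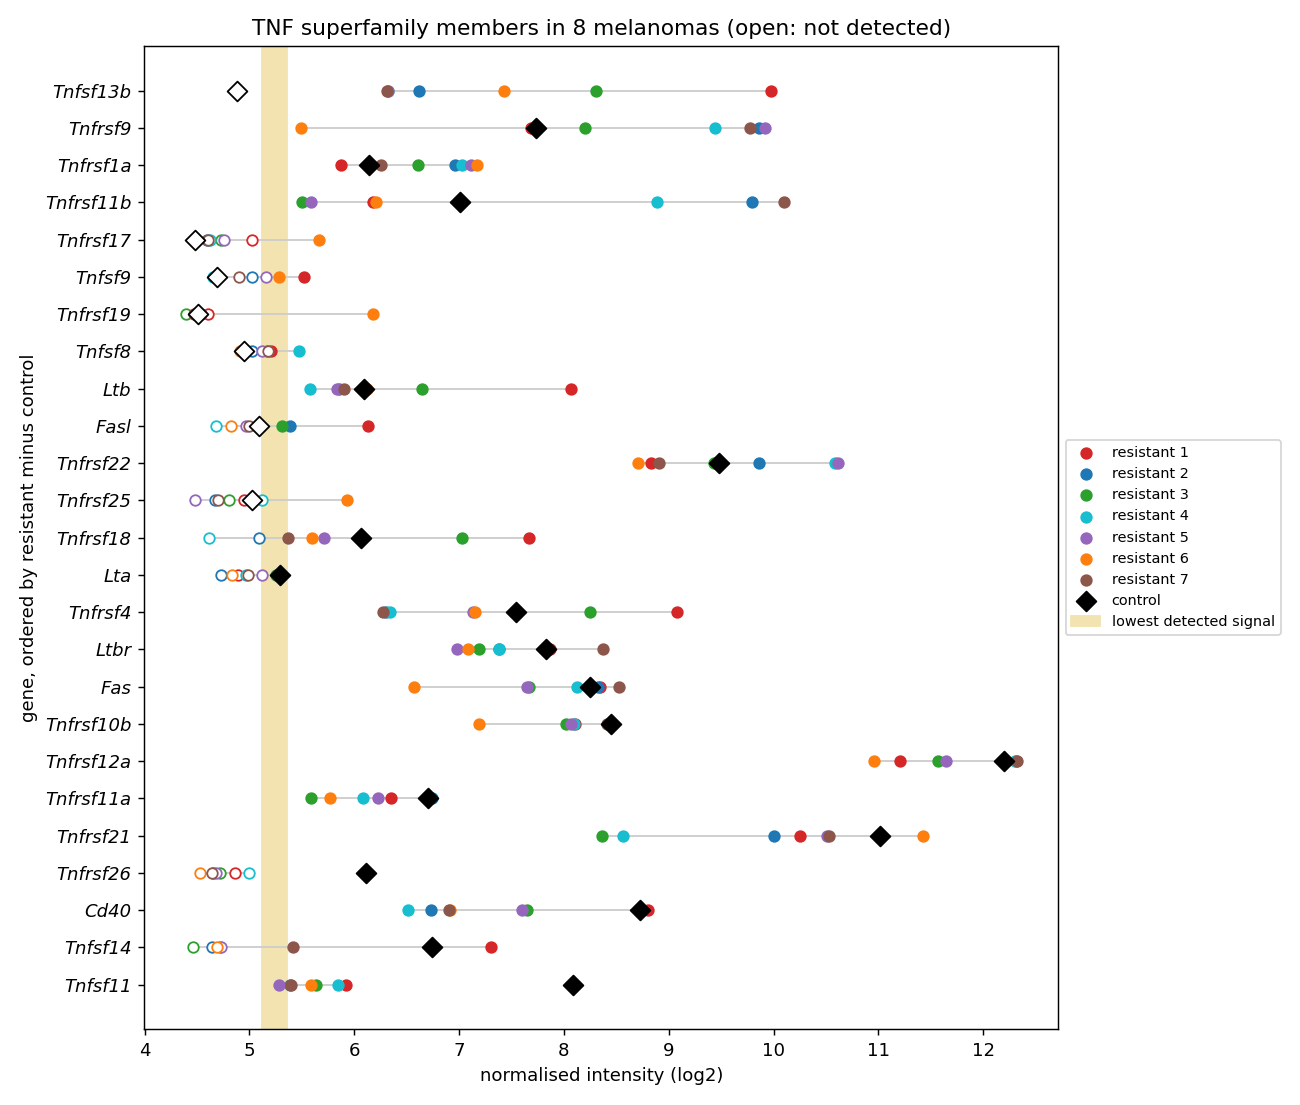
Normalised intensity (log2, horizontal axis) of the 25 detected members, 1 row per gene, ordered by the mean difference between resistant tumours and control. Circles are the 7 resistant tumours, diamonds the control, open symbols undetected values and the shaded band the lowest detected signals of the arrays; Tnfsf11 at the bottom has its 7 circles between 5.28 and 5.92 and its diamond at 8.09.

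Among the ligands, Tnfsf11, which encodes RANKL, the cytokine that drives osteoclast formation, was the member that fell. It read 8.09 in the control. In resistant tumours 1 to 7 it read 5.92, 5.39, 5.64, 5.85, 5.28, 5.59 and 5.39. The groups did not overlap, and the resistant tumours lay close to the lowest detected signals. The untransformed intensities were 376.8 in the control and 90.9 to 121.3 in the resistant tumours. The mean difference was -2.51 (SE 0.29, limma adjusted p = 0.0194). The spread behind that SE is that of 7 resistant readings near the detection limit. Their detection p was 0.0401, 0.0489 and 0.0464 in tumours 2, 5 and 7. How far control tumours vary cannot be read from 1 array. Tnfsf11 fell 4.50-fold in the tumour nearest the control, tumour 1, and 6.99-fold in the farthest, tumour 5. The size rests on the background correction: the mean fold was 5.69 with it and 3.13 without. The call was lost without tumour 2 or tumour 3 (limma adjusted p = 0.0704 and 0.0537), and when genes had to be detected on at least 4 arrays (0.0770).

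Neither receptor of RANKL passed the test. Tnfrsf11a, which encodes RANK, its signalling receptor, read 6.70 in the control and 5.59 to 6.74 in the resistant tumours, with a median of 6.23, so that the control lay inside their range. Its mean difference was -0.49 (SE 0.43, limma adjusted p = 0.820). Tnfrsf11b encodes osteoprotegerin, a secreted decoy that binds RANKL and keeps it from RANK. It read 7.01 in the control. Tumours 2, 4 and 7 read 9.79, 8.89 and 10.09. In tumours 1, 3, 5 and 6 it read 6.18, 5.50, 5.59 and 6.21. The resistant tumours thus fell on both sides of the control, 3 above and 4 below. In tumours 2, 4 and 7 osteoprotegerin exceeded the control array 6.90-fold, 3.68-fold and 8.49-fold, while in tumours 3 and 5 it was 2.84-fold and 2.68-fold below it. Its range over the resistant tumours, 4.59, was larger than that of 97.6% of all genes. Because of that spread the group difference was 0.46 (SE 1.86, limma adjusted p = 0.968). The receptor tyrosine kinase gene Met, shown here after its values were seen, read 10.32, 9.51 and 9.83 in tumours 2, 4 and 7 and 4.65 to 5.92 in the other tumours and the control. Its ligand gene Hgf read 8.21, 7.53 and 8.36 in tumours 2, 4 and 7, against 4.86 to 6.06 elsewhere. The share of all genes highest in tumours 2, 4 and 7 was not counted, and a link of Met or Hgf to osteoprotegerin was not tested.

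Of 10 osteoclast genes, chosen because RANK signalling induces the osteoclast program, 7 were detected and 0 passed the test in either direction; at an unadjusted p under 0.05, 3 were lower and 1 higher in limma (5.35% and 2.86% of all genes). Below the control in all 7 tumours were 5 of the 7, against 17% of all genes, and the median difference was -1.02. Acp5, which encodes the osteoclast acid phosphatase TRAP, read 6.58 in the control and 4.97 to 6.02 in the resistant tumours (difference -1.20, SE 0.37, limma adjusted p = 0.423). The collagen-degrading protease gene Ctsk read 11.25 in the control and 7.71 to 10.62 in the resistant tumours (difference -2.21, SE 1.03, limma adjusted p = 0.622). Oscar, an osteoclast receptor gene, read 6.16 in the control and 4.94 to 5.58 in the resistant tumours, near or under the detection limit. Dcstamp, needed for osteoclast fusion and also among the lower genes, was detected in the control alone, at 5.33, so its direction follows from the detection filter. Nfatc1, the transcription factor gene of the osteoclast program, lay on the other side of the control, at 8.14 against 8.77 ± 0.15 (SD, n = 7). Macrophages share a lineage with osteoclasts, and the summed intensity of the 8 detected macrophage markers was 9740 in the control and 14812 to 24314.5 in the resistant tumours. None of the 8 passed in limma (smallest adjusted p = 0.0877, for Cx3cr1), 6 were higher and 0 lower at an unadjusted p under 0.05, and Mrc1 was below the control in 5 of 7 tumours. Their part in these values was not tested. Of 8 bone matrix and osteoblast genes, 5 were detected and 1, the bone sialoprotein gene Ibsp, fell. It read 8.04 in the control and 4.55 to 5.33 in the resistant tumours (limma adjusted p = 0.00825), and it was detected in 1 of the 7. The median difference of the 5 was 0.28: the osteocalcin gene Bglap lay above the control in all 7, at an undetected 4.57 against 4.58 to 10.65, highest in tumour 6, and Alpl and Phex were above it in 5 of 7.

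**Figure D2:**
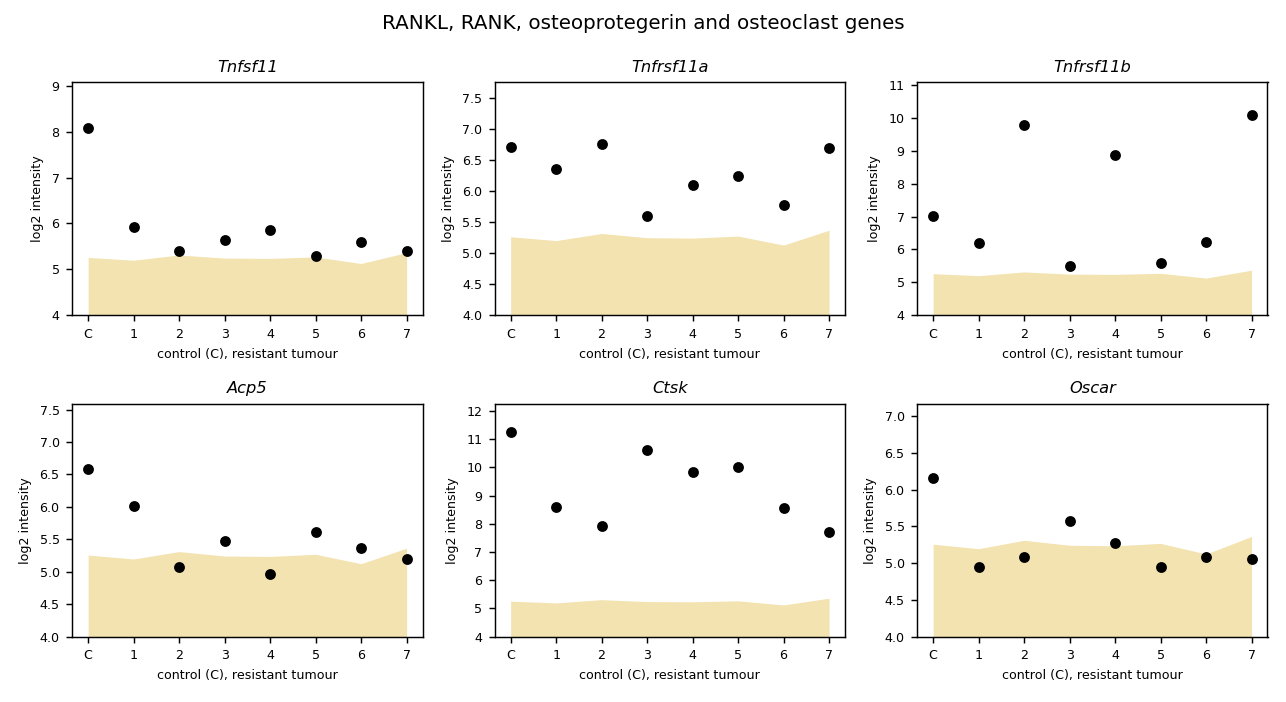
Normalised intensity (log2, vertical axes, each panel on its own scale) of RANKL (Tnfsf11), RANK (Tnfrsf11a), osteoprotegerin (Tnfrsf11b) and the osteoclast genes Acp5, Ctsk and Oscar in the control (C) and resistant tumours 1 to 7. The shaded area lies under the lowest detected signal of each array; Tnfsf11 is high in the control alone, while Tnfrsf11b is at 8.89 to 10.09 in tumours 2, 4 and 7.

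The ligand with the largest positive difference was Tnfsf13b, which encodes BAFF, a survival factor of B cells made largely by myeloid cells. It was detected in all 7 resistant tumours and not in the control, by either of its 2 probes. The probe used read 9.98, 8.31 and 7.43 in tumours 1, 3 and 6. Tumours 2, 4, 5 and 7 read 6.62, 6.32, 6.32 and 6.32, and the control 4.88, under the detection limit. All 7 resistant tumours therefore lay above the control, by very unequal amounts. The lower bound of the fold was 26.3 for tumour 1, the highest, followed by 8.28 for tumour 3, while the smallest bound was 2.08, for tumour 7. The other probe gave the same 3 tumours as the highest, at 9.78, 8.18 and 7.21. As a group the resistant tumours were at least 4.20-fold higher with the background correction, and 2.81-fold higher as measured without it, but the difference did not pass (limma adjusted p = 0.664; 0.409 without tumour 1). The summed intensity of the macrophage markers was above the control in the resistant tumours too, lowest among them in tumour 3. Of 4 adipocyte markers with a probe, Plin1 and Fabp4 were detected on no array. The other 2, Adipoq and Lpl, summed to 2575 in tumour 1, 705 in tumour 3 and 388 in tumour 6. Their sum was 316 in the control and 97.6 to 370 in the other 4 tumours. In tumour 6 Adipoq read an undetected 4.78, below the 5.66 and 6.52 of tumours 4 and 5. Lpl read 8.49 there, against 8.32 and 8.01. The part of these cells in the BAFF values was not tested.

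The receptors of BAFF were near or under the detection limit. Tnfrsf13b and Tnfrsf13c, which encode TACI and the BAFF receptor of B cells, were detected on no array. Tnfrsf17, which encodes BCMA, the receptor of plasma cells, was detected in tumour 6 alone, at 5.66. In tumour 1, where BAFF was highest, Tnfrsf17 read 5.03 and was not detected. In that same tumour the plasma cell gene Mzb1 read 11.77, against 5.05 to 7.06 in the other resistant tumours and 6.07 in the control. Of 5 B and plasma cell markers with a probe, 3 were detected, Ms4a1 and Jchain on no array, and their summed intensity was 3744 in tumour 1, 112 to 247 in the other resistant tumours and 135 in the control.

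Tnfrsf4 and Tnfrsf18, which encode the T cell costimulators OX40 and GITR and lie close together on chromosome 4, were both highest in tumour 1, then in tumour 3, then in the control, and ordered the other 5 tumours differently. Tnfrsf4 read 9.08 in tumour 1, 8.25 in tumour 3 and 7.55 in the control. The other resistant tumours, 2, 4, 5, 6 and 7, read 6.31, 6.34, 7.14, 7.15 and 6.27. Thus 2 resistant tumours were above the control and 5 below it. Tnfrsf18 read 7.67 in tumour 1, 7.03 in tumour 3 and 6.07 in the control, and 5.09, 4.61, 5.71, 5.60 and 5.37 in tumours 2, 4, 5, 6 and 7, of which tumours 2 and 4 were under the detection limit. Its other detected probe also put tumours 1 and 3 highest, at 7.31 and 6.72, with the control at 5.67. Against the control array, tumour 1 was 2.90-fold higher for Tnfrsf4 and 3.04-fold higher for Tnfrsf18. The group differences were -0.33 (SE 1.00, limma adjusted p = 0.956) and -0.20 (SE 1.00, limma adjusted p = 0.975), and the other Tnfrsf18 probe differed by 0.02, so that no direction can be given for it. The ligands of these receptors, Tnfsf4 and Tnfsf18, were detected on no array.

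Ltb, which encodes lymphotoxin β, a membrane anchor for lymphotoxin α on lymphocytes, was also highest in tumour 1, at 8.07. It read 6.65 in tumour 3, 6.10 in the control and 5.86, 5.58, 5.83, 6.12 and 5.90 in tumours 2, 4, 5, 6 and 7. Tnfsf14 encodes LIGHT, a T cell ligand of the lymphotoxin β receptor and of HVEM. It read 7.31 in tumour 1 and 6.74 in the control, was detected at 5.41 in tumour 7 and was under the detection limit in tumours 2 to 6, at 4.65, 4.46, 4.72, 4.72 and 4.69. By the probe used, LIGHT was at least 2.69-fold to at least 3.06-fold lower in those 5 tumours than in the control array. Its group difference of -1.60 (SE 0.93) did not pass (limma adjusted p = 0.702; 0.0780 without tumour 1). The other detected Tnfsf14 probe gave a smaller group difference, -0.58. It read 6.58 in tumour 1, 5.75 in the control and an undetected 4.68 to 5.23 in tumours 2 to 7. Fasl, the ligand by which cytotoxic lymphocytes trigger FAS, was detected in tumours 1, 2 and 3, at 6.13, 5.38 and 5.31, and not in the control. Lta was at the detection limit, at 5.29 in the control and 5.26 in tumour 3. Tnfsf9, which encodes the 4-1BB ligand, was detected in tumours 1 and 6, at 5.52 and 5.28, and Tnfsf8, which encodes the CD30 ligand, in tumours 1 and 4, at 5.21 and 5.47. Tumour 1 thus held the highest level of Tnfsf13b, Tnfrsf4, Tnfrsf18, Ltb, Tnfsf14, Fasl and Tnfsf9. Cd40 was highest there too, at 8.80, while the T cell costimulator gene Tnfrsf9, at 7.69, was not. The share of all genes highest in tumour 1 was not counted.

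Most lymphocyte markers stood apart in the same tumour. The summed intensity of the 6 detected T cell markers, of 8 with a probe, was 5190.3 in tumour 1, 289 to 695 in the other resistant tumours and 730 in the control. Cd4 and Cd8a were detected on no array. Among the 6, Cd247 was not highest in tumour 1, at an undetected 5.05 against 5.38 in the control and 5.80 in tumour 4. Cd3e, a chain of the T cell receptor complex, read 9.44 in tumour 1, 6.66 in the control and 5.28 to 6.70 in the other 6. Cd27, a TNF receptor family gene outside the symbol rule and a T cell costimulator, read 9.79 in tumour 1, 7.54 in the control and 6.98 in tumour 3. The summed intensity of the 4 detected NK and cytotoxic markers was 3417 in tumour 1, against 195 to 738 and 999 in the control. Of these 4, Klrb1c was not highest in tumour 1, at 5.06 against 5.22 in the control, both undetected. In tumour 3, by contrast, the T cell sum was 675, below the control, while Tnfrsf4, Tnfrsf18 and Ltb were above it. Regulatory T cell genes were added after these values were seen: Ctla4 read 7.86 in tumour 1, 5.91 in tumour 3 and 5.76 in the control, and Foxp3 6.36, 6.19 and 5.74. The third detected gene of that list, Il2ra, was below the control in all 7, at 5.47 against 5.39 in tumour 1 and 4.54 to 4.72 in the other 6. In the other 5 resistant tumours Ctla4 read 4.68 to 5.24 and Foxp3 5.34 to 5.81. Skeletal muscle markers, too, were highest in tumour 1, with a summed intensity of 36444 against 326 in the control. The part of these cells in the members' levels was not tested.

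**Figure D3:**
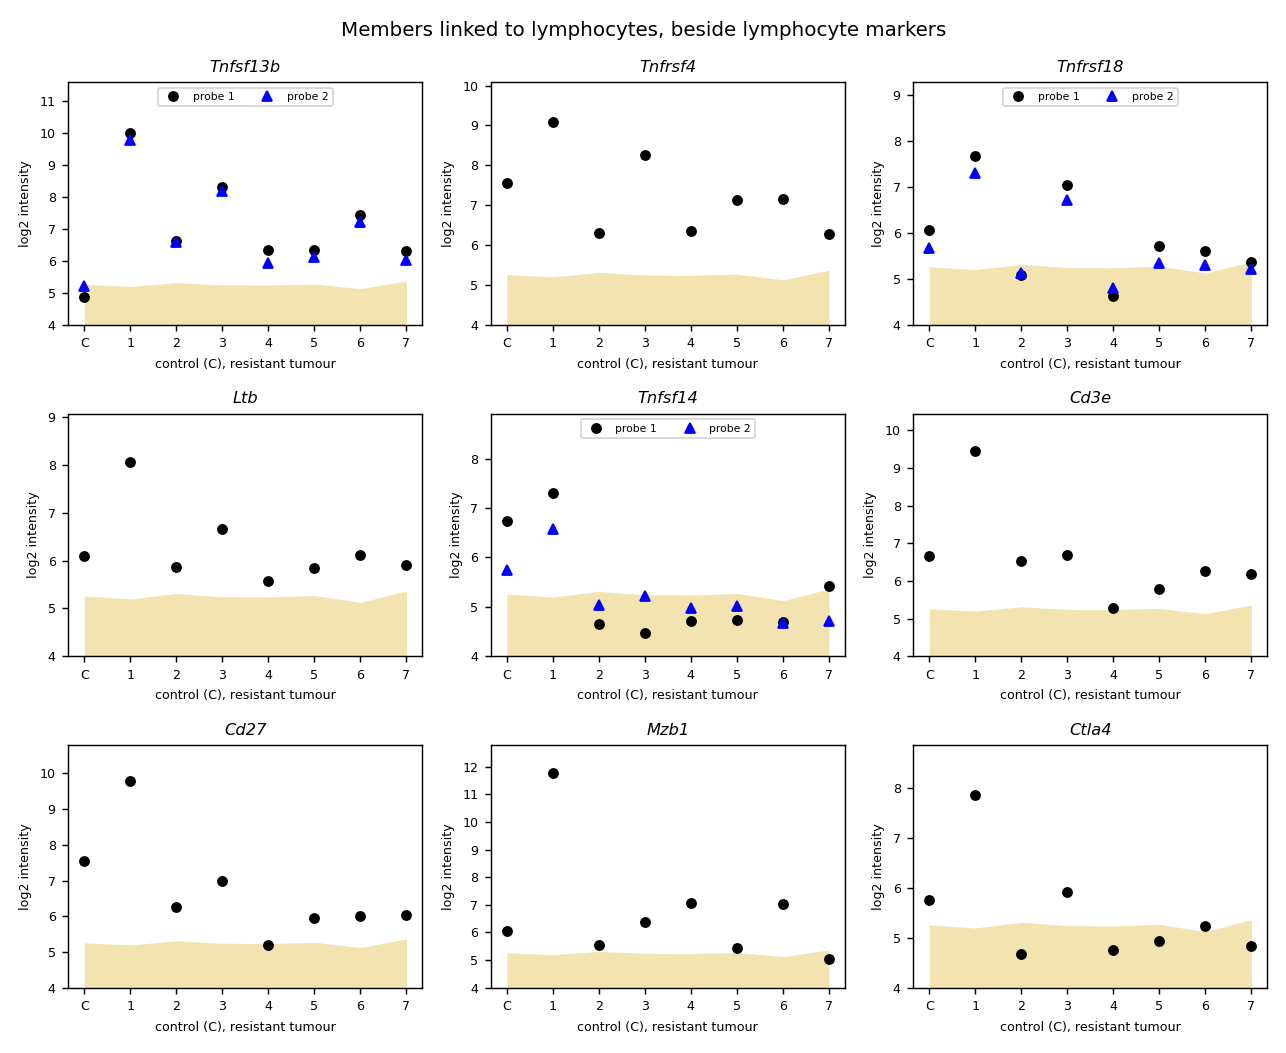
Normalised intensity (log2, vertical axes, each panel on its own scale) of 5 members linked to lymphocytes and of the lymphocyte genes Cd3e, Cd27, Mzb1 and Ctla4 in the control (C) and resistant tumours 1 to 7, with the shaded area under the lowest detected signal and a second symbol for a second detected probe. Tumour 1 is the highest in all 9 panels, and tumour 3 is the next resistant tumour for Tnfsf13b, Tnfrsf4, Tnfrsf18 and Ltb.

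Of the receptors, Tnfrsf9 spread most widely among the tumours after osteoprotegerin. It encodes 4-1BB, also called CD137, a costimulator that T cells gain on activation. Tumours 2, 4, 5 and 7 read 9.86, 9.44, 9.91 and 9.78. Tumours 1 and 3 were near the control's 7.73, at 7.69 and 8.20, and tumour 6 read 5.49. Against the control array it was 3.28-fold to 4.55-fold higher in tumours 2, 4, 5 and 7 and 4.72-fold lower in tumour 6. Its other probe gave the same split, with 8.22 to 8.93 in those 4 tumours, 6.94 in the control and an undetected 4.70 in tumour 6. The summed intensity of the T cell markers was 289 to 695 in the 4 tumours where Tnfrsf9 was high and 447 in tumour 6, all below the control. In tumour 6, where Tnfrsf9 was lowest, so was the sum of the 6 detected dendritic, neutrophil and mast cell markers, at 555 against 2729 to 8975 elsewhere. So were the sums of the 8 fibroblast markers, at 9036 against 15580.1 to 45487, and of the endothelial markers, at 1049 against 1387 to 2633. The first of these sums was 2729 in tumour 7, where Tnfrsf9 read 9.78, and 8975 in tumour 4, where it read 9.44. In the control and tumour 3, with Tnfrsf9 at 7.73 and 8.20, that sum was 6722 and 5690. The part of these cells in Tnfrsf9 was not tested. The group difference was 0.90 (SE 1.49, limma adjusted p = 0.920; difference 1.42 without tumour 6).

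Cd40, the costimulatory receptor of B cells, macrophages and dendritic cells, was lower than the control in 6 of 7 tumours. The probe used read 8.72 in the control and 8.80 in tumour 1. In tumours 2 to 7 it read 6.73, 7.65, 6.52, 7.60, 6.91 and 6.91. Those 6 tumours were 2.11-fold to 4.61-fold below the control array, and tumour 1 was level with it. The mean difference was -1.42 (SE 0.73, limma adjusted p = 0.664). It was -1.22 and -0.84 on the other 2 detected probes. The ligand gene Cd40lg, which the symbol rule does not include, was detected on no array. Of cells that can carry CD40, macrophages had a higher summed marker intensity in each of the 7 tumours than in the control. The 3 detected B and plasma cell genes had a median difference of 0.83. Cd79b and Cd79a exceeded the control in all 7 and Mzb1 in 4 of 7, but Cd79a was detected on 1 array only. Of all genes, 13.3% exceeded the control in all 7. The dendritic, neutrophil and mast cell list had a median difference of -0.92. Of its 6 detected genes, 3 lay below the control in all 7, against 17% of all genes: Ccr7 and the neutrophil genes Csf3r and S100a9. The dendritic cell genes Xcr1 and Flt3 were detected on no array, so the list cannot show how dendritic cells differed. The part of these cell types in the Cd40 values was not tested.

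The death receptors varied in single tumours. Tnfrsf21, which encodes death receptor 6, read 11.01 in the control, 8.36 in tumour 3 and 8.56 in tumour 4. In tumours 1, 2, 5, 6 and 7 it read 10.26, 10.00, 10.51, 11.43 and 10.52. Tumours 3 and 4 were 6.29-fold and 5.47-fold below the control array, and tumour 6 was above it. The other probe also put tumours 3 and 4 lowest, at 5.39 and 5.28, and tumour 6 highest, at 7.90. The group difference of -1.06 (SE 1.02) did not pass (limma adjusted p = 0.838), and was -0.16 on that probe. Fas, the receptor of FASL, read 8.25 in the control and 7.64 to 8.53 in 6 resistant tumours, but 6.57 in tumour 6, 3.20-fold below the control array. Its other detected probe differed in sign over the group, by 0.29 against -0.36, so no group direction can be given. Tnfrsf10b, the mouse TRAIL receptor gene, read 8.45 in the control, 8.02 to 8.45 in 6 resistant tumours and 7.19 in tumour 6. It has 4 detected probes, and another also put tumour 6 lowest, at 4.84 against 4.90 in tumour 3. By the remaining probes tumours 3 and 1 were lowest, at 4.95 and 4.85, against 5.09 and 4.96 in tumour 6. These values of the other probes were all undetected. The ligand gene Tnfsf10, which encodes TRAIL, was detected on no array.

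Tnfrsf1a, which encodes the main TNF receptor, was above the control in 6 of 7 tumours by the probe used. By its other 2 probes tumour 7 was below the control, at 5.82 against 6.33 and at an undetected 5.25 against 6.07. The probe used read 6.14 in the control and 5.88, 6.96, 6.61, 7.03, 7.11, 7.17 and 6.26 in tumours 1 to 7. The difference was 0.58 (SE 0.48, limma adjusted p = 0.807), and 0.30 and 0.37 on its other 2 probes. Its ligand gene Tnf and the second TNF receptor gene Tnfrsf1b, expressed mainly by immune and endothelial cells, were detected on no array. Ltbr, the lymphotoxin β receptor gene, read 7.83 in the control and 6.98 to 8.37 in the resistant tumours. Tnfrsf12a encodes FN14, the receptor of TWEAK. It read 12.19 in the control, 12.30 to 12.32 in tumours 2, 4 and 7 and 10.96 to 11.64 in the other 4. The TWEAK gene Tnfsf12 was detected on no array.

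Tnfrsf26 and Tnfrsf22 are neighbours on chromosome 7, and Tnfrsf22 encodes a mouse decoy receptor of TRAIL. Tnfrsf26 was detected in the control alone, at 6.11, and read 4.86, 4.65, 4.72, 4.99, 4.68, 4.53 and 4.64 in resistant tumours 1 to 7. The lower bound of the fold was 1.82 for the group mean and 1.68 to 1.99 for single tumours (1.66 for the mean as measured without background correction), and it did not pass (limma adjusted p = 0.0807), though it passed with no detection filter (0.0278) and with the trended variance (0.0393). None of the 7 resistant values is a detected signal, and their spread is that of the background. Tnfrsf22 read 9.48 in the control, 10.58 in tumour 4, 10.62 in tumour 5 and 8.71 to 9.86 in the other 5. Both of its detected probes put tumours 4 and 5 highest, but they differed in sign over the group, by 0.08 and -0.20. Tnfrsf23, the third gene of this neighbourhood, was detected on no array, and how far its probe and those of its 2 paralogs share targets was not tested. Tnfrsf19, known as TROY, and Tnfrsf25, known as death receptor 3, were each detected in tumour 6 alone, at 6.18 and 5.93. Tnfrsf8, Tnfrsf14 and Tnfsf15 complete the 12 members detected on no array.

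**Figure D4:**
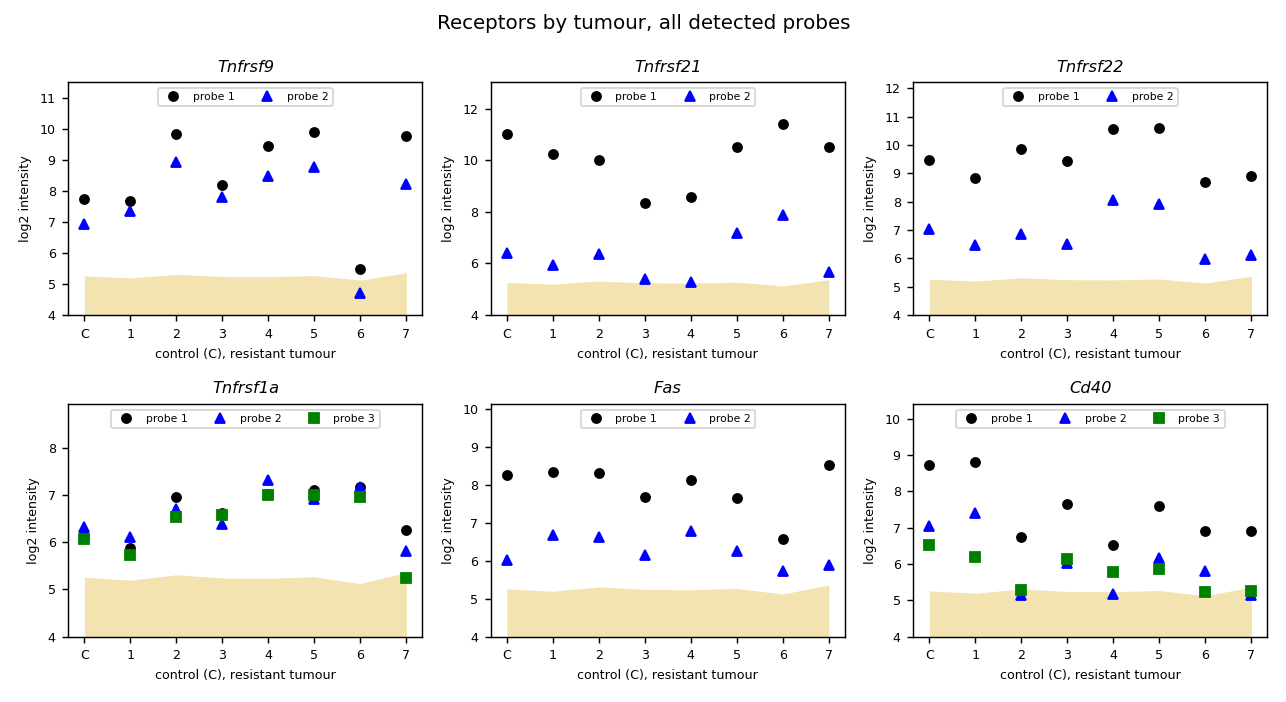
Normalised intensity (log2, vertical axes, each panel on its own scale) of 6 receptors in the control (C) and resistant tumours 1 to 7, with every detected probe as its own symbol and the shaded area under the lowest detected signal. Tnfrsf9 is high in tumours 2, 4, 5 and 7 and lowest in tumour 6 by both probes, and Tnfrsf21 is lowest in tumours 3 and 4 by both probes.

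Downstream of the receptors no gene passed. Of 17 detected adaptor and death signalling genes, 0 rose and 0 fell in limma, and the median difference was 0.08. At an unadjusted p under 0.05 in limma, 1 was higher and 0 lower, against 2.86% and 5.35% of all genes. Rbck1, which encodes HOIL-1, a subunit of the linear ubiquitin ligase of TNF receptor complexes, read 7.42 in the control and 8.09 to 9.52 in the resistant tumours (difference 1.45, SE 0.43, limma adjusted p = 0.397). Traf6, the adaptor gene of RANK and CD40, read 8.37 in the control and 7.79 to 8.09 in the resistant tumours. The groups did not overlap for either gene, nor for 1 more of the 17, the deubiquitinase gene Otulin, a share of non-overlapping genes below that of all genes (13.3% above and 17% below). Cflar, Birc3 and Xiap were detected on no array.

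Among 18 detected NF-κB kinases, subunits and inhibitors, 0 passed in limma and 2 were higher at an unadjusted p under 0.05. All 7 tumours lay above the control for 5 and below it for 3, against 13.3% and 17% of all genes, and the median difference was -0.01. Tnip2 and Tank, which encode binding partners of A20 and of the TRAFs, differed by 0.92 (SE 0.24, limma adjusted p = 0.329) and 1.07 (SE 0.39, limma adjusted p = 0.537). Rela, the main activating subunit, read 11.60 in the control and 11.04 to 11.49 in the resistant tumours. Of 20 detected genes induced through NF-κB, 0 passed in limma, 3 were lower and 0 higher at an unadjusted p under 0.05, and all 7 tumours lay below the control for 5 genes and above it for 1. The shares of all genes are 5.35% and 2.86% for the p and 17% and 13.3% for all 7 tumours. The cytokine gene Il6, with the smallest p, was detected in the control alone, at 5.59 (difference -0.73, SE 0.25, limma adjusted p = 0.476). As Il6 counts as detected through the control alone, its direction follows from the detection filter. Sod2, the mitochondrial superoxide dismutase gene, read 12.21 in the control and 11.47 to 11.98 in the resistant tumours. Csf1, the macrophage growth factor gene, read 7.58 in the control and 7.87 to 8.68 in the resistant tumours. Plau, the urokinase gene, read 13.12 in the control, 12.88 in tumour 1 and 8.51 to 9.51 in the other 6 (difference -3.57, SE 1.39, limma adjusted p = 0.562). The adhesion gene Icam1 read 9.67 in the control and 7.71 to 9.32 in the resistant tumours. Tnfaip3, which encodes A20, the feedback inhibitor of TNF signalling, read 6.31 in the control and had the same mean, 6.31 ± 0.54 (SD, n = 7), in the resistant tumours. The median difference of these 20 genes was -0.17.

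Shedding of TNF family proteins depends on the protease ADAM17 and its iRhom partners. Of 5 detected genes of this group, 0 passed in limma. At an unadjusted p under 0.05 in limma, 2 were lower and 0 higher, against 5.35% and 2.86% of all genes. Rhbdf2, which encodes iRhom2, read 7.27 in the control and 5.19 to 6.56 in the resistant tumours (difference -1.43, SE 0.55, limma adjusted p = 0.553). Adam17 read 10.51 in the control and 9.36 to 10.31 (difference -0.82, SE 0.36, limma adjusted p = 0.607). The inhibitor gene Timp3 was above the control in 6 of 7 tumours, at 11.23 against 9.75 to 13.94. Among the 6 detected TNF family genes outside the symbol rule, 0 passed in limma, with 0 at an unadjusted p under 0.05. Relt was above the control in all 7, at 6.49 against 6.55 to 7.01, as were 13.3% of all genes.

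**Figure D5:**
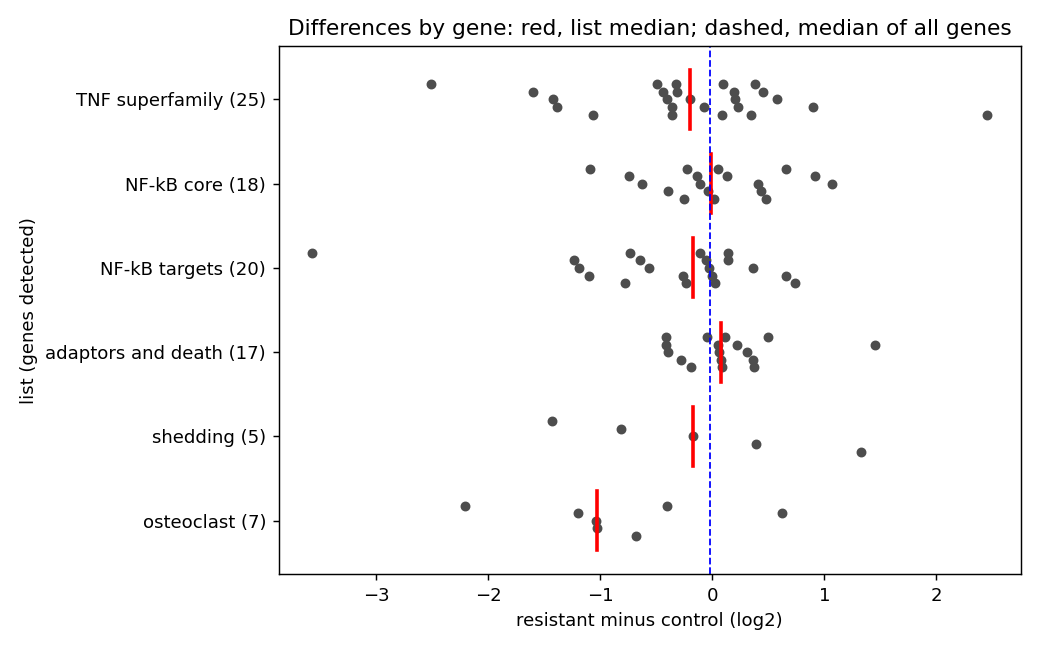
Mean difference between resistant tumours and control (log2, horizontal axis) of each detected gene of the TNF superfamily and of 5 lists fixed for its pathway, with 1 point per gene, the list median as a red bar and the median of all genes as a dashed line. The medians lie between -0.20 and 0.08 for 5 of the 6 rows and at -1.02 for the 7 osteoclast genes, and no point apart from Tnfsf11 belongs to a gene that passed the test.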

How the data were processed

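Total RNA of 8 tumours was biotin-labelled and read on Illumina bead arrays, 1 per tumour, per the labels' protocols. The authors deposited probe intensity on a linear scale, not background-subtracted or normalized per the file headers, and beside it the detection p-value of each probe. Their table of normalized intensity served as an alternative. GenomeStudio is named in the submitters' processing notes, with no version given in the sources used here. Groups came from the sample titles. Probes were named from the platform annotation (23978 of 25697), with symbols updated through RefSeq (23962 matched). limma's neqc (offset 16) corrected the background, quantile normalized the arrays and took log2. The 15067 probes detected on 1 array or more were kept, and the brightest on average stood for each of 10461 genes. Of 10 members with several detected probes, 3 had probes that differed in sign. The 7 resistant arrays were tested against the control array with lmFit and eBayes, two-sided, with Benjamini-Hochberg adjustment over all genes, after the script was tested on simulated data. A fold against a group with no detected array is a lower bound, written "at least": each undetected array entered at its lowest detected signal, or at its own signal where that was higher. Differences of 1 tumour from the control compare 1 array with 1 array and have no test. Values in every tumour are in the text or the plots for members that passed, differed by at least 1 on the log2 scale or spanned at least 2 among resistant tumours, and for their ligand or receptor partners. From the pathway lists, genes among the 4 with the smallest p are named. Icam1, Tnfaip3, Ctsk and Bglap, and most single marker genes, were chosen after their values were seen; marker lists are otherwise given by their summed intensity. The members and lists were chosen with earlier results of these data known. Alternatives were no background correction, median scaling, the authors' normalized values and other detection filters. The others were every detected probe, the mean of probes, a trended robust variance and each resistant tumour left out. The tables name no chip or scan, so no batch could be tested. R 4.3.3 and limma 3.58.1 were used.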

Additional observations from a re-analysis of the deposited data

Results flagged for a closer look

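Of 25 members, 5 had 1 resistant tumour set apart from the other 6 by a gap wider than Dixon's 95% limit for 7 samples, beside 13.1% of all genes; by chance about 1 in 20 groups would be set apart. Tumour 1 stood above the others for Ltb, at 8.07, and for Tnfsf14, at 7.31. Tumour 6 stood below the others for Tnfrsf10b, at 7.19 on the probe used. The gene's other detected probes, undetected in tumour 6, did not all put it lowest. Tumour 6 stood above the other tumours for Tnfrsf19, at 6.18, and for Tnfrsf17, at 5.66. Both genes count as detected through that tumour alone, so their gap follows from the detection filter.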

How the results depend on the processing

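Over 15 alternatives, 19 of 25 members kept the sign of their difference in each setting that gave them 1 value per gene. The setting that tested every detected probe is outside that count. There Fas, counted among the 19, had probes of both signs, at -0.36 and 0.29. The sign changed for Tnfrsf22, Tnfrsf18, Tnfrsf25, Tnfrsf19, Ltb and Fasl, none of which passed in any setting. Among members, 1 gene fell in the values reported, 2 with no detection filter, 2 with the trended variance and 0 when detected on at least 4 arrays, where limma had 1 at an unadjusted p under 0.05 and 8775 genes were tested. Leaving out 1 resistant tumour gave 0 to 1. Over all genes, the 22 that fell became 8 without background correction, 8 with the deposited normalized values, 35 with no filter and 0 with the 4-array filter (403 at an unadjusted p under 0.05), and 5 to 50 without 1 tumour. The 1 gene that rose became 4 with no filter, 3 with the trended variance and 1 to 8 without 1 tumour. Pairs of member and tumour at least 2-fold from the control were 23 higher and 40 lower of 175. With the deposited values, as with uncorrected background, 15 were higher and 21 lower; median scaling gave 20 and 46. Median scaling shifted the median difference of all genes to -0.20. The Tnfsf11 difference ranged from -2.69 to -1.65, the smaller value without background correction. There the Tnfsf13b difference was 1.49 and that of Tnfrsf26 was -0.73. Where the call changed, the cause was not tested. No paired analysis was possible because there is a single control array, so at most 1 pair could be formed. Signal near background limits Tnfsf11, Tnfrsf26, Lta, Fasl and the members detected in 1 or 2 tumours.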
